A study of Rattus norvegicus with 15 samples.

Results

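Galnt3, Aard, Kif26b, Rassf4, Wfdc1, Prrg4, Kcng1, Ccbe1 and Sox11 are 9 of the 12169 protein-coding genes listed in an RNA sequencing study of rat bone marrow mesenchymal stem cells. They were chosen by their measured values, for low expression in the libraries labelled shRac1 and for higher expression in shRac1+OGD than in shRac1 or shLuci+OGD. Every difference among those groups is therefore given as a description, with its standard error (SE) and no test. The SE of a gene rests on its spread in all groups, also those not compared. The cells were taken from femurs of Sprague Dawley rats and were used at passages 3 to 5. Expression is given as FPKM, which counts sequenced fragments relative to transcript length and to the fragments mapped in a library, so that levels can be compared between genes.

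There were 5 groups of 3 libraries. The shRac1+OGD cells carried a lentivirus with a hairpin named for Rac1 and went through oxygen and glucose deprivation (OGD), which was 12 h in sugar-free medium at 1% oxygen followed by 24 h that the labels mark with R, read here as reoxygenation. The shLuci+OGD cells carried a control lentivirus named for luciferase and went through the same OGD. The shRac1 cells and the shLuci cells carried the same viruses and stayed in high-glucose medium with serum. The BMSC cells were uninfected and stayed in that medium too. The labels do not say whether the 3 libraries of a group came from separate cultures or animals, so p-values measure only the spread between these libraries, which may be technical. They name neither the promoter of the hairpins nor a selection of infected cells.

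Rac1, the target named by the hairpin, is a small GTPase of the actin cytoskeleton. It showed no clear loss in the libraries labelled shRac1, with a mean of 147 ± 4.96 FPKM there against 156 ± 9.90 FPKM in shLuci (SD, n = 3 each) and overlapping libraries. Rac1 (ENSRNOG00000001068) ranged over 152.3 to 157.4 FPKM in shRac1+OGD, 139.3 to 167.6 FPKM in shLuci+OGD, 141.7 to 151.5 FPKM in shRac1, 145.6 to 165.2 FPKM in shLuci and 148.4 to 154.8 FPKM in BMSC. Directions given below rest on the titles of the libraries alone. BMSC replicate 2 stood apart, with an FPKM sum of 628685 and 144 genes at 0, against 463945 to 516495 and 42 to 78 in the other 14 libraries. Of the mesenchymal stem cell markers, Thy1, Cd44, Itgb1 and Alcam were listed, with summed levels of 823 to 1355 FPKM, and Nt5e, Eng and Vcam1 are not among the genes analysed here. Of 6 endothelial markers only Tek was listed, at 0.287 to 0.753 FPKM. Of 7 haematopoietic markers only Cd14 was listed, at 8.63 to 9.16 FPKM in shRac1+OGD, 11.8 to 12.9 FPKM in shLuci+OGD, 7.14 to 8.40 FPKM in shRac1, 6.55 to 7.94 FPKM in shLuci and 6.28 to 8.29 FPKM in BMSC. Of 7 macrophage markers Cd68 and Fcer1g were listed, with summed levels of 0.916 to 3.39 FPKM over all libraries. Summed levels of the osteoblast markers Ibsp, Alpl and Runx2 were 12.8 to 14.2 FPKM in shRac1+OGD, 10.8 to 12.0 FPKM in shLuci+OGD, 21.9 to 23.4 FPKM in shRac1, 33.0 to 37.6 FPKM in shLuci and 28.3 to 31.5 FPKM in BMSC. Alpl carried this shift, with means of 7.79 FPKM in shRac1+OGD, 4.35 in shLuci+OGD, 16.6 in shRac1, 28.8 in shLuci and 24.1 in BMSC, whereas Runx2 averaged 3.56, 5.57, 4.78, 5.03 and 3.90 FPKM and Ibsp 2.10, 1.65, 1.45, 2.05 and 1.65 FPKM in the same order. Summed levels of the adipocyte markers Fabp4 and Pparg were 0.774 to 1.05, 1.74 to 2.84, 1.24 to 1.82, 0.595 to 0.915 and 0.345 to 0.951 FPKM in the same order. The part of these shifts in the results below was not tested. In these bulk samples, fewer cells of a type and less RNA per cell cannot be told apart.

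The 9 genes belong to no single pathway. Mesenchymal stem cells of the marrow secrete matrix and growth factors, and can turn into bone, cartilage or fat cells. Ccbe1 and Wfdc1 encode secreted proteins. Galnt3 encodes a Golgi enzyme that starts the O-glycosylation of secreted proteins. Prrg4 and Kcng1 encode membrane proteins. Kif26b and Rassf4 encode proteins of intracellular signalling and movement, Sox11 a transcription factor, and Aard a protein named for a domain rich in alanine and arginine.

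The promoter regions available for these genes differed widely in base composition. RefSeq promoter windows (build GRCr8, 250 bases before to 50 after the annotated start of the gene) matched 5 of the 9 genes, Galnt3, Prrg4, Rassf4, Sox11 and Kif26b. Of these, 3 are shown because they hold the highest and the lowest GC content of the 5 and the largest number of GC boxes. The GC box is GGGCGG or CCGCCC on the strand shown, and the TATA box TATAAA or TTTATA. Capitals mark these motifs, and the sequences run 5′ to 3′ in the sense of the gene.
Rassf4, chr4:151604834-151605133, minus strand: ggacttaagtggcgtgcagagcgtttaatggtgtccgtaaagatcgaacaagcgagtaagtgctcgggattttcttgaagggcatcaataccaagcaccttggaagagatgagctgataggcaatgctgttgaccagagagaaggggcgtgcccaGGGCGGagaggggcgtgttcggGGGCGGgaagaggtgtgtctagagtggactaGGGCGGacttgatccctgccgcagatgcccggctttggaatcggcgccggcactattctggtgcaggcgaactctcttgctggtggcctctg
Kif26b, chr13:92815177-92815476, plus strand: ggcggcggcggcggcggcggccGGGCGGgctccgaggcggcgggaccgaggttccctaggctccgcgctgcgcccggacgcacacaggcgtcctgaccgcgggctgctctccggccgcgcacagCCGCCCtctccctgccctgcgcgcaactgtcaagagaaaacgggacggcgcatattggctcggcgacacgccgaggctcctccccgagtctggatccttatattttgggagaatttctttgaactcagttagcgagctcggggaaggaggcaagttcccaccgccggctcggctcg
Galnt3, chr3:71174274-71174573, minus strand: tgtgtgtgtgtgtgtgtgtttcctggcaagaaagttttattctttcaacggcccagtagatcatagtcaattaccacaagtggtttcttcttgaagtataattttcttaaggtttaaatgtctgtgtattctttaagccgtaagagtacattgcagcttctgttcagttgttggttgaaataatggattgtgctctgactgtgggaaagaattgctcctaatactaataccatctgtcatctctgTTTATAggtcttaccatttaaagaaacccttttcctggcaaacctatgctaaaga
The Rassf4 window had a GC content of 57.3% and 3 GC boxes, which began at positions -95, -73 and -42 from the annotated start. The Kif26b window had 69.7% GC and 2 GC boxes, and the Galnt3 window had 37.0% GC, no GC box and a TATA box match that began at position -5. The median GC content of all 33469 windows was 51.7%. RefSeq places Kif26b on the plus strand and the deposited table on the minus strand, and the table's build is not named.

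Both strands of all 33469 windows were searched for 7 short motifs, of which the E-box could overlap the hypoxia response core. GC boxes were in 3 of the 5 windows and in 33.1% of all windows. The E-box CANNTG was in 5 of 5, against 72.1% of all. The hypoxia response core ACGTG and the SOX motif ACAAAG were each in 1 window, that of Prrg4, against 19.3% and 18.8% of all. The TATA box was in 1 (Galnt3), against 14.2%. The AP-1 motif TGANTCA and the TEAD motif GGAATG were in 0 of the 5, against 7.33% and 14.2% of all. A match is a string of letters and not a known binding site, and the annotated start may not be the one used in these cells. No motif was in all 5 windows except the E-box, which most windows hold.

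**Figure D1:**
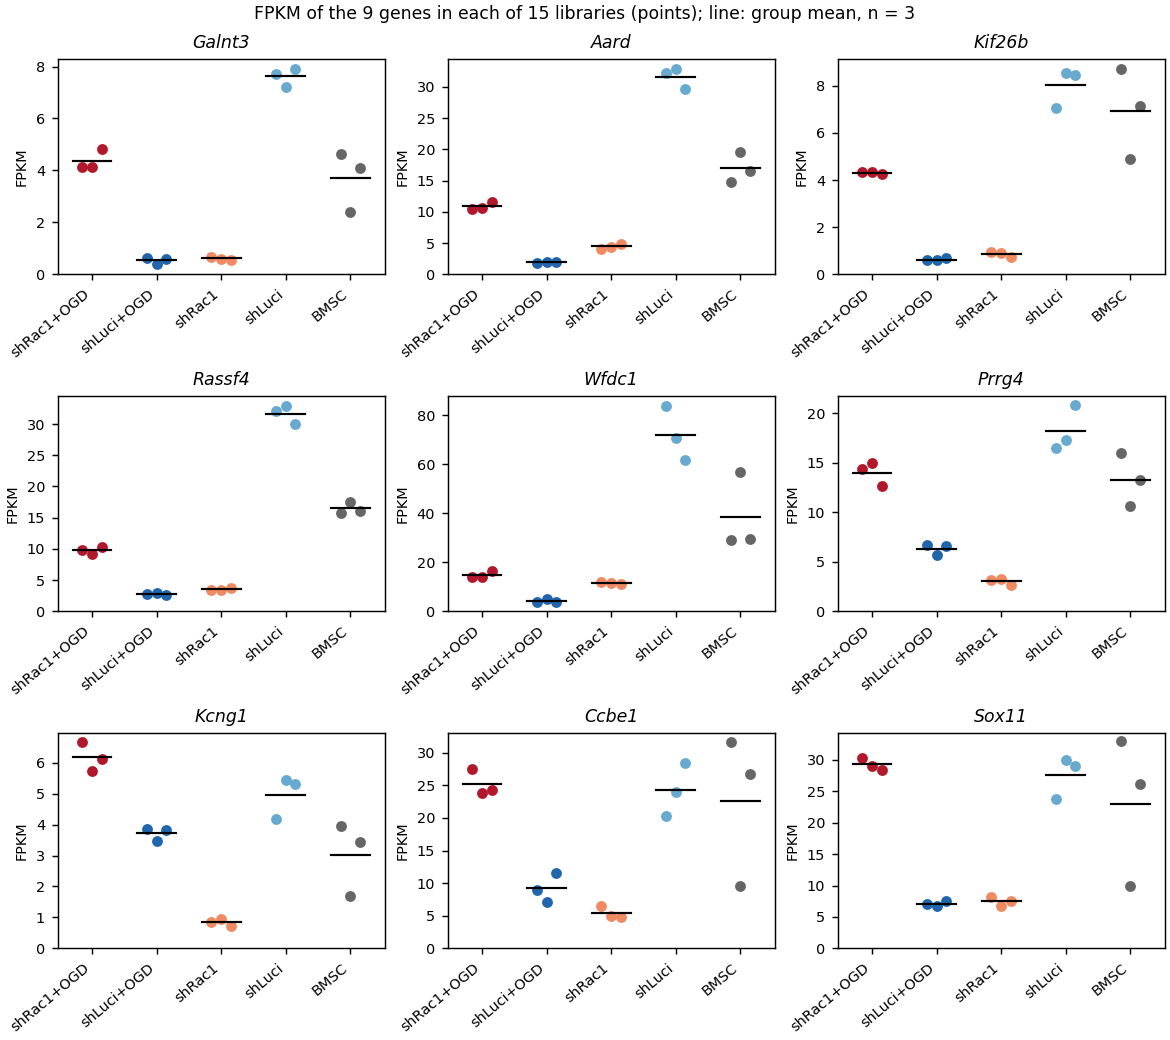
FPKM of the 9 genes in each of the 15 libraries, with a panel per gene, the groups on the horizontal axis (shRac1+OGD, shLuci+OGD, shRac1, shLuci, BMSC) and FPKM on the vertical axis, which starts at 0. Points are libraries and lines are group means (n = 3). In every panel the 3 shRac1 points lie below the shRac1+OGD, shLuci and BMSC points, and the shRac1+OGD points reach or pass the shLuci points for Kcng1, Ccbe1 and Sox11 but stay far below them for Aard, Rassf4 and Wfdc1.

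Among the secreted proteins, Ccbe1 (ENSRNOG00000024536, chromosome 18, 61759289 to 61788863, minus strand, in a build not given in the sources used here) helps the protease ADAMTS3 to activate the lymphatic growth factor VEGF-C. Its level was 27.5, 23.9 and 24.2 FPKM in shRac1+OGD, 9.01, 7.11 and 11.5 FPKM in shLuci+OGD, 6.55, 4.96 and 4.83 FPKM in shRac1, 20.4, 24.0 and 28.4 FPKM in shLuci, and 31.6, 9.59 and 26.7 FPKM in BMSC. The shRac1+OGD libraries overlapped the shLuci libraries, the shLuci+OGD libraries lay above the shRac1 libraries, and BMSC replicate 2 lay far below the other BMSC libraries. Means were 25.2 ± 2.01 FPKM in shRac1+OGD, 9.20 ± 2.19 FPKM in shLuci+OGD, 5.45 ± 0.961 FPKM in shRac1, 24.3 ± 4.01 FPKM in shLuci and 22.6 ± 11.6 FPKM in BMSC (SD, n = 3 each, as for all means below).

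Wfdc1 (ENSRNOG00000015904, chromosome 19, 52313795 to 52332697, plus strand) encodes a secreted protein with a WAP domain, a fold of many protease inhibitors. Its level was 14.2, 13.8 and 16.6 FPKM in shRac1+OGD, 3.99, 5.19 and 3.79 FPKM in shLuci+OGD, 11.9, 11.5 and 11.03 FPKM in shRac1, 83.8, 70.7 and 61.7 FPKM in shLuci, and 28.9, 56.7 and 29.5 FPKM in BMSC. Groups did not overlap for Wfdc1, but shRac1+OGD and shRac1 lay close to each other, at means of 14.9 ± 1.53 FPKM and 11.5 ± 0.444 FPKM. Wfdc1 had the smallest difference between these groups among the 9 genes, 0.36 on the log2 scale (SE 0.22), which ranked 1555 from the top of 11515 genes. It was lowest in shLuci+OGD, and its BMSC replicate 2 lay above the other BMSC libraries.

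Galnt3 (ENSRNOG00000005727, chromosome 3, 52175547 to 52212412, minus strand) encodes the enzyme whose O-glycosylation protects the phosphate hormone FGF23 from cleavage. Its level was 4.13, 4.15 and 4.81 FPKM in shRac1+OGD, 0.619, 0.412 and 0.594 FPKM in shLuci+OGD, 0.682, 0.581 and 0.566 FPKM in shRac1, 7.72, 7.22 and 7.91 FPKM in shLuci, and 4.63, 2.39 and 4.10 FPKM in BMSC. Both shLuci+OGD and shRac1 stood below 1 FPKM in every library and overlapped. The shRac1+OGD libraries lay between shLuci+OGD and shLuci and overlapped BMSC. Galnt3 had 57.3% of its shLuci mean in shRac1+OGD and 8.0% of it in shRac1.

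Prrg4 (ENSRNOG00000022710, chromosome 3, 94784008 to 94808861, minus strand) encodes a single-pass membrane protein with a Gla domain, which binds calcium after a carboxylation that needs vitamin K. Its level was 14.4, 14.9 and 12.7 FPKM in shRac1+OGD, 6.70, 5.68 and 6.64 FPKM in shLuci+OGD, 3.15, 3.28 and 2.66 FPKM in shRac1, 16.5, 17.3 and 20.8 FPKM in shLuci, and 16.0, 10.6 and 13.2 FPKM in BMSC. Its shLuci+OGD libraries lay above the shRac1 libraries without overlap, with 2.09 times their mean. The shRac1+OGD libraries overlapped BMSC and lay below every shLuci library, at 77.0% of the shLuci mean.

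Kcng1 (ENSRNOG00000054314, chromosome 3, 165020230 to 165039707, minus strand) encodes a potassium channel subunit that forms no channel by itself and modifies channels of the Kv2 type. Its level was 6.66, 5.74 and 6.12 FPKM in shRac1+OGD, 3.85, 3.48 and 3.84 FPKM in shLuci+OGD, 0.849, 0.962 and 0.734 FPKM in shRac1, 4.17, 5.43 and 5.31 FPKM in shLuci, and 3.94, 1.69 and 3.42 FPKM in BMSC. Kcng1 was the one gene of the 9 whose shRac1+OGD libraries all lay above every shLuci library, at 124% of the shLuci mean. Its shLuci+OGD mean was 4.39 times the shRac1 mean, the widest gap between those groups among the 9 genes.

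Kif26b (ENSRNOG00000028624, chromosome 13, 96775357 to 97173469, minus strand) encodes a kinesin-like protein which, in mouse cells, is degraded after Wnt5a acts on its Ror receptors. Its level was 4.34, 4.33 and 4.27 FPKM in shRac1+OGD, 0.593, 0.595 and 0.670 FPKM in shLuci+OGD, 0.925, 0.905 and 0.734 FPKM in shRac1, 7.06, 8.57 and 8.48 FPKM in shLuci, and 8.73, 4.91 and 7.13 FPKM in BMSC. The shRac1+OGD libraries were close to each other (SD 0.0359 FPKM) and lay below every shLuci and BMSC library. The shLuci+OGD libraries lay below every shRac1 library, and both groups stood below 1 FPKM.

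Rassf4 (ENSRNOG00000013526, chromosome 4, 148769096 to 148803988, minus strand) encodes a protein of the family that carries a Ras association domain. Its level was 9.84, 9.15 and 10.3 FPKM in shRac1+OGD, 2.85, 2.90 and 2.54 FPKM in shLuci+OGD, 3.48, 3.37 and 3.75 FPKM in shRac1, 32.1, 32.9 and 30.0 FPKM in shLuci, and 15.8, 17.5 and 16.1 FPKM in BMSC. The 5 groups did not overlap, in the order shLuci, BMSC, shRac1+OGD, shRac1, shLuci+OGD.

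Sox11 (ENSRNOG00000030034, chromosome 6, 46629974 to 46631983, minus strand) encodes a transcription factor of the SoxC group, active in neural and skeletal progenitors. Its level was 30.3, 29.1 and 28.4 FPKM in shRac1+OGD, 7.06, 6.67 and 7.62 FPKM in shLuci+OGD, 8.13, 6.75 and 7.51 FPKM in shRac1, 23.8, 30.1 and 29.0 FPKM in shLuci, and 32.9, 9.93 and 26.2 FPKM in BMSC. The libraries fell into a low set (shLuci+OGD and shRac1, which overlapped) and a high set (shRac1+OGD and shLuci, which overlapped), with BMSC replicate 2 near the low set. The shRac1+OGD mean was 29.3 ± 0.975 FPKM and the shLuci mean 27.6 ± 3.34 FPKM.

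Aard (ENSRNOG00000004708, chromosome 7, 91588458 to 91593297, plus strand) had 10.5, 10.6 and 11.5 FPKM in shRac1+OGD, 1.81, 2.04 and 2.00 FPKM in shLuci+OGD, 4.10, 4.42 and 4.91 FPKM in shRac1, 32.2, 32.9 and 29.7 FPKM in shLuci, and 14.8, 19.6 and 16.5 FPKM in BMSC. The groups did not overlap and followed the same order as those of Rassf4.

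The comparison of shLuci with BMSC, which asks what the control virus changes, is the one pair of groups the choice of the genes did not name. Here 5 of the 9 genes rose in shLuci (limma, Benjamini-Hochberg adjusted over 11515 genes, called below 0.05), beside 9.99% of all genes tested. Choosing genes that are low in shRac1 can favour genes that are high in shLuci. Counts of the 9 genes in this comparison are therefore not independent of the choice. Galnt3, Kif26b and Kcng1 also reached the level needed for testing only through the groups where they are high. Rassf4 rose to 31.7 ± 1.52 FPKM in shLuci, against 16.5 ± 0.887 FPKM in BMSC (log2 difference 0.92, SE 0.08, limma adjusted p = 1.31e-05). Aard rose to 31.6 ± 1.65 FPKM in shLuci, against 17.0 ± 2.44 FPKM in BMSC (log2 difference 0.89, SE 0.10, limma adjusted p = 0.000122). These calls held under every alternative tried, with each library left out and with shLuci and BMSC fitted alone.

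Galnt3 (log2 difference 0.99, SE 0.18, limma adjusted p = 0.00241), Wfdc1 (0.96, SE 0.22, adjusted p = 0.0107) and Kcng1 (0.69, SE 0.21, adjusted p = 0.0456) also passed. In a fit of these groups alone the limma adjusted p was 0.132 for Galnt3, 0.21 for Wfdc1 and 0.381 for Kcng1, so their calls rest on the spread shared with the other groups. Wfdc1 also lost its call without shLuci replicate 1 (limma adjusted p = 0.0525), and Kcng1 lost it under most alternatives, among them median-of-ratios scaling (limma adjusted p = 0.0609) and a replicate block (limma adjusted p = 0.0632). Prrg4 (0.45, limma adjusted p = 0.056), Kif26b (0.23, adjusted p = 0.374), Ccbe1 (0.25, adjusted p = 0.669) and Sox11 (0.41, adjusted p = 0.413) did not pass. The libraries of shLuci lay above all BMSC libraries for 6 genes, the 5 that passed and Prrg4, where 19.6% of all genes tested did so.

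BMSC replicate 2 bears on these values. It stood at 0.329 times the mean of BMSC replicates 1 and 3 for Ccbe1, 0.336 times for Sox11, 0.458 times for Kcng1, 0.548 times for Galnt3, 0.620 times for Kif26b and 0.725 times for Prrg4. It stood above that mean for Rassf4 (1.09 times), Aard (1.25 times) and Wfdc1 (1.94 times). Without it the log2 difference of shLuci against BMSC was -0.27 for Ccbe1 (SE 0.18, limma adjusted p = 0.268) and -0.094 for Sox11 (SE 0.11, limma adjusted p = 0.551), both with the opposite sign. Galnt3 (0.74, limma adjusted p = 0.00035), Wfdc1 (1.28, adjusted p = 1.17e-05) and Kcng1 (0.38, adjusted p = 0.0281) kept their calls without it.

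**Figure D2:**
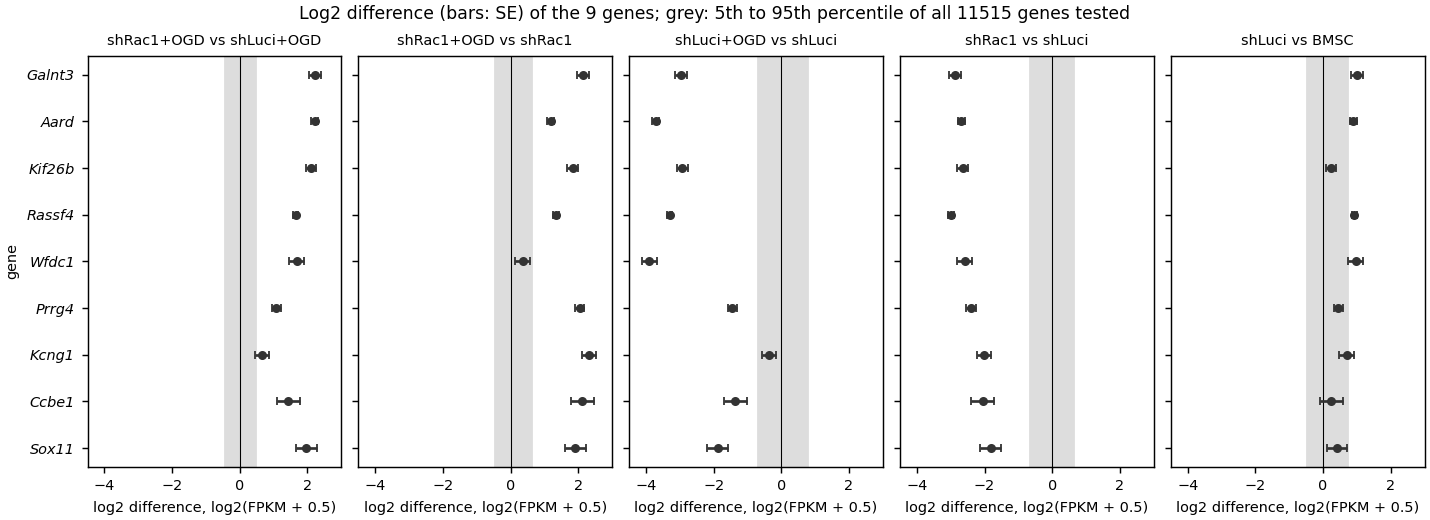
Log2 difference of the 9 genes, from log2(FPKM + 0.5), in 5 comparisons (panels, each with the log2 difference on the horizontal axis and genes on the vertical axis), with bars for the limma SE and grey bands for the 5th to 95th percentile of all 11515 genes tested. The values lie right of 0 in shRac1+OGD against shLuci+OGD and against shRac1, and left of 0 in shLuci+OGD against shLuci and shRac1 against shLuci. Wfdc1 at 0.36 lies nearest to 0 in shRac1+OGD against shRac1, and Kcng1 at -0.37 does in shLuci+OGD against shLuci.

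In the comparison of shRac1 with shLuci, which the choice of the genes used, all 9 lay lower in shRac1 without overlap, beside 25.6% of all genes tested that did so. The log2 differences ran from -3.00 for Rassf4 (SE 0.08) to -1.82 for Sox11 (SE 0.31), with a median of -2.59 against -0.01 for all genes. In FPKM means, shRac1 held 8.0% of the shLuci level for Galnt3, 10.6% for Kif26b, 11.2% for Rassf4 and 27.0% for Sox11. All 9 also lay below every BMSC library in shRac1, beside 9.05% of all genes, BMSC replicate 2 included. Across the table, 695 genes had every shRac1 library below every shLuci and BMSC library, and 352 of these also had every shRac1+OGD library above every shRac1 and shLuci+OGD library. The 9 are thus a small part of the genes with that arrangement.

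The comparison of shLuci+OGD with shLuci asks what OGD changes in cells with the control virus. The choice of the genes used the shLuci+OGD libraries, and all 9 lay lower in shLuci+OGD without overlap, beside 18.4% of all genes tested. The 9 differed widely in size. Wfdc1 (-3.91, SE 0.22), Aard (-3.71, SE 0.10) and Rassf4 (-3.30, SE 0.08) had the largest log2 differences, and in FPKM means they held 6.0%, 6.17% and 8.73% of the shLuci level in shLuci+OGD. Kcng1 held 74.9% of it (log2 difference -0.37, SE 0.21), and Prrg4 and Ccbe1 held 34.8% and 37.9%.

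In shRac1+OGD against shRac1 all 9 lay higher without overlap, beside 30.7% of all genes tested. Kcng1 had the largest log2 difference (2.31, SE 0.21), followed by Galnt3 (2.13, SE 0.18), Ccbe1 (2.12, SE 0.34) and Prrg4 (2.04, SE 0.14), and in FPKM means shRac1+OGD held 7.27 times the shRac1 level for Kcng1 and 7.16 times for Galnt3. Aard (1.19, SE 0.10) and Rassf4 (1.35, SE 0.08) had smaller log2 differences. In shRac1+OGD against shLuci+OGD all 9 lay higher again, beside 14.7% of all genes, from 2.23 for Galnt3 (SE 0.18) to 0.66 for Kcng1 (SE 0.21) on the log2 scale. This comparison shares the shRac1+OGD libraries with the previous one, so the 2 sets of values are not independent.

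**Figure D3:**
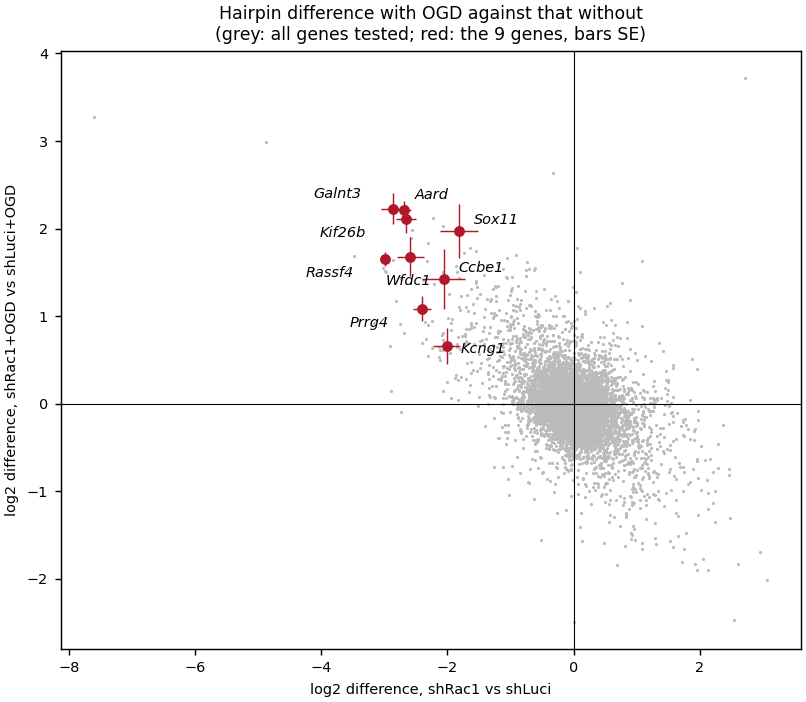
Each point is a gene, with its log2 difference of shRac1 against shLuci on the horizontal axis and of shRac1+OGD against shLuci+OGD on the vertical axis, grey for all 11515 genes tested and red for the 9 genes, with bars for the limma SE. The 9 genes lie at the upper left, between Rassf4 at -3.00 and Sox11 at -1.82 on the horizontal axis and between Kcng1 at 0.66 and Galnt3 at 2.23 on the vertical axis.

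The 9 genes differed in how near shRac1+OGD came to shLuci. Sox11, Ccbe1 and Kcng1 held 106%, 104% and 124% of the shLuci mean in shRac1+OGD. The shRac1+OGD libraries overlapped shLuci for Sox11 and Ccbe1, with log2 differences of 0.09 (SE 0.31) and 0.06 (SE 0.34), and both signs turned without shLuci replicate 1 (-0.01 and -0.05). These SEs rest on the spread in all groups. BMSC, which is not compared here, had the widest spread, with SDs of 11.8 FPKM for Sox11 and 11.6 FPKM for Ccbe1. Prrg4 held 77.0%, Galnt3 57.3% and Kif26b 53.7%. Aard held 34.4%, Rassf4 30.8% and Wfdc1 20.6%, and for these 3 the shRac1+OGD mean covered 23.5%, 22.1% and 5.60% of the distance between the shRac1 mean and the shLuci mean. In all, 6 genes lay below every shLuci library in shRac1+OGD and 1 above, beside 19.4% and 25.2% of all genes.

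Against BMSC, 7 of the 9 genes lay lower in shLuci+OGD without overlap, beside 9.27% of all genes, and Kcng1 and Ccbe1 overlapped. In shRac1+OGD, 4 of the 9 genes lay below every BMSC library, Aard, Kif26b, Rassf4 and Wfdc1, and 1 lay above, Kcng1, beside 7.10% and 24.7% of all genes. For Galnt3, Prrg4, Ccbe1 and Sox11 shRac1+OGD and BMSC overlapped, with log2 differences of 0.25 (SE 0.18), 0.09 (SE 0.14), 0.31 (SE 0.34) and 0.50 (SE 0.31). Without BMSC replicate 2 these 4 differences were near or below 0, at -0.0014 for Galnt3, -0.06 for Prrg4, -0.21 for Ccbe1 and -0.0039 for Sox11, and that of Prrg4 was also below 0 with median-of-ratios scaling (-0.06).

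The low groups, shLuci+OGD and shRac1, were not alike for all genes. Kcng1, Prrg4 and Ccbe1 lay higher in shLuci+OGD than in shRac1 without overlap, beside 32.9% of all genes, with log2 differences of 1.65 (SE 0.21), 0.96 (SE 0.14) and 0.69 (SE 0.34). These 3 of the 9 genes are a share like that of all genes, so the count does not set the 9 apart. Wfdc1, Aard, Rassf4 and Kif26b had lower means in shLuci+OGD, with log2 differences of -1.32 (SE 0.22), -1.02 (SE 0.10), -0.31 (SE 0.08) and -0.27 (SE 0.16). Galnt3 and Sox11 overlapped, at -0.10 (SE 0.18) and -0.06 (SE 0.31). The 3 genes that lay higher here, with the overlapping Sox11 and Galnt3, were the 5 with the highest share of the shLuci level in shRac1+OGD.

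Profiles over the 15 libraries differed among the 9 genes. Pearson's r between pairs of the 9 genes, on log2(FPKM + 0.5), ran from 0.183 for Wfdc1 with Kcng1 to 0.983 for Aard with Rassf4, with a median of 0.856 over 36 pairs. The r of a gene with the mean of the other 8 was 0.990 for Galnt3, 0.971 for Kif26b and 0.937 for Prrg4, and lowest for Wfdc1 (0.763) and Kcng1 (0.616). These values describe 15 libraries in 5 groups, 3 of which the choice of the genes named.

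The genes outside the 9 with the profile most like their mean, by r over the 15 libraries, were Cadm4 (0.987), Jup (0.986), Crmp1 (0.980), Lpl (0.976), Mmp2 (0.976), Ptger3 (0.972), Mdga1 (0.972), Mfsd6 (0.972), Picalm (0.972) and Slc6a15 (0.970). Mmp2, Cadm4 and Picalm had higher mean FPKM than any of the 9 in each group. Mmp2, a gelatinase that cuts matrix collagen, averaged 194 FPKM in shRac1+OGD, 109 in shLuci+OGD, 103 in shRac1, 280 in shLuci and 177 in BMSC. Cadm4, a cell adhesion molecule, averaged 132 FPKM in shRac1+OGD, 48.8 in shLuci+OGD, 47.2 in shRac1, 167 in shLuci and 112 in BMSC. Jup, the junction protein plakoglobin, averaged 11.5 FPKM in shRac1+OGD, 4.92 in shLuci+OGD, 4.33 in shRac1, 14.1 in shLuci and 9.88 in BMSC. Ptger3, a prostaglandin E receptor, averaged 8.41 FPKM in shRac1+OGD, 1.91 in shLuci+OGD, 1.95 in shRac1, 13.9 in shLuci and 10.8 in BMSC.

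In the authors' deposited table of changed genes, the 9 genes are all listed as higher in shRac1+OGD than in shLuci+OGD, a direction given for 317 genes (2.60% of the 12169), and all as higher in shLuci than in shRac1, given for 615 genes (5.05%). The choice of the 9 genes used both comparisons. Its lists give log2 changes of shLuci over shRac1, from 2.85 for Rassf4 to 1.69 for Kcng1. For shLuci over BMSC the authors' deposited table lists Wfdc1, Galnt3, Rassf4 and Aard as higher, with q-values of 0.304, 0.178, 0.0199 and 0.0627, among 390 genes (3.20%), and does not list Kcng1. For shLuci+OGD over shRac1 the authors' deposited table lists Kcng1, Prrg4 and Ccbe1 as higher and Wfdc1 and Aard as lower, among 455 (3.74%) and 359 genes (2.95%). For BMSC over shRac1 it lists 8 of the 9 genes as higher, without Sox11, among 224 genes (1.84%). Their q-values ran from 0.00692 for Rassf4 to 0.302 for Ccbe1. For shRac1+OGD over BMSC it lists Kcng1 as higher and Aard, Rassf4 and Wfdc1 as lower, among 293 (2.41%) and 178 genes (1.46%).

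Families and partners of the 9 genes did not all move in the same direction. Of 181 genes in 8 lists, 97 were in the table and 94 were tested. The lists were chosen with earlier results of these data known, so their shares are a description only. In shRac1 against shLuci 10 (10.6%) rose and 20 (21.3%) fell (limma adjusted p below 0.05), beside 6.92% and 9.82% of all genes tested, with a median log2 difference of -0.00035 in the lists and -0.01 in all genes. In shLuci+OGD against shLuci 15 (16.0%) rose and 20 (21.3%) fell, beside 13.1% and 9.18%. In shRac1+OGD against shRac1 17 (18.1%) rose and 7 (7.45%) fell, beside 7.76% and 4.19%, and in shRac1+OGD against shLuci+OGD 11 (11.7%) rose and 5 (5.32%) fell, beside 3.85% and 3.59%. In shLuci against BMSC 18 (19.1%) rose and 12 (12.8%) fell, beside 9.99% and 4.29%. The difference with OGD in shRac1 minus that in shLuci was above 0 for 20 and below 0 for 11 of the 94 by the limma interaction test, beside 8.88% and 7.82%. The shares of all genes given here also stand beside the counts of single lists below, which hold few genes.

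**Figure D4:**
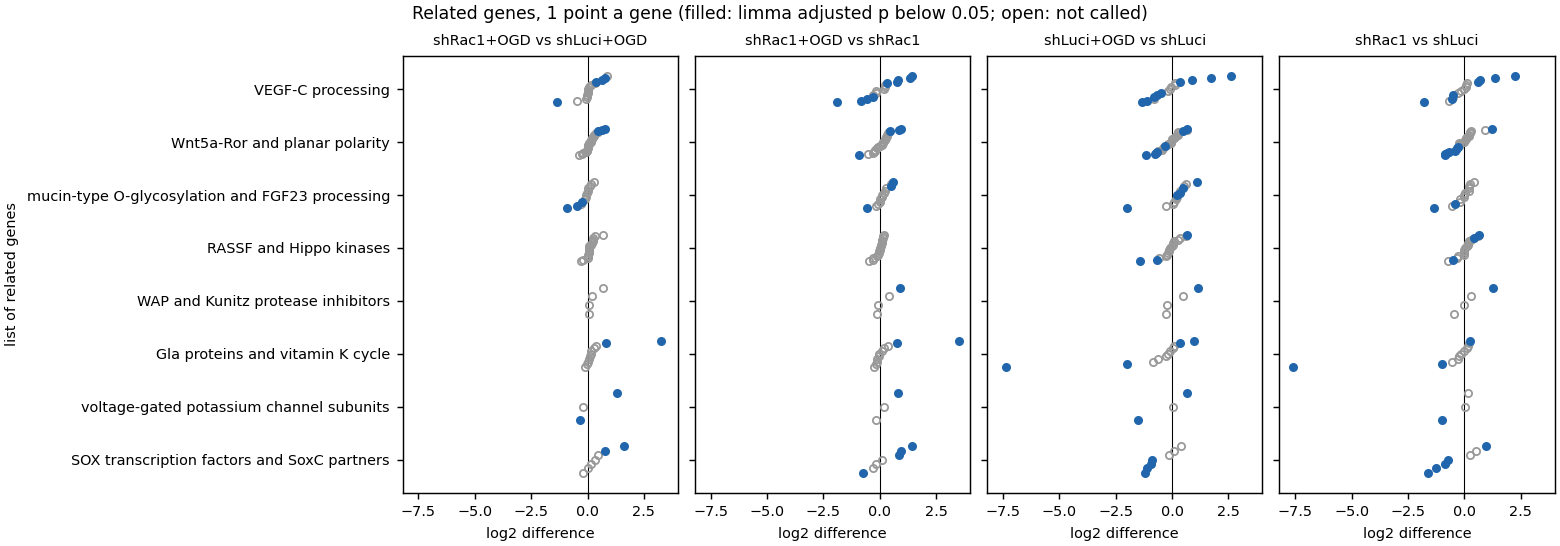
Log2 difference of the related genes, with a panel for each of 4 comparisons, the 8 lists on the vertical axis and the log2 difference from log2(FPKM + 0.5) on the horizontal axis. Each point is a gene, filled where limma called it at an adjusted p below 0.05. The point far to the left in shRac1 against shLuci (-7.61) and in shLuci+OGD against shLuci (-7.36) is Mgp.

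Around Sox11, 4 of 7 tested genes of the list of SOX factors and SoxC partners fell in shRac1 against shLuci and 1 rose, and 4 fell and 0 rose in shLuci+OGD against shLuci. Sox9, the factor of cartilage and skeletal progenitors, averaged 24.0 FPKM in shRac1+OGD, 17.1 in shLuci+OGD, 12.4 in shRac1, 39.4 in shLuci and 44.3 in BMSC. It fell by 1.63 on the log2 scale in shRac1 against shLuci (SE 0.17, limma adjusted p = 2.86e-05) and rose in shRac1+OGD against shRac1 (0.93, limma adjusted p = 0.00344). Tead2, a Hippo pathway transcription factor, averaged 15.2 FPKM in shRac1+OGD, 8.68 in shLuci+OGD, 8.04 in shRac1, 19.7 in shLuci and 12.7 in BMSC, and passed the test in shRac1+OGD against both shRac1 (0.87, limma adjusted p = 0.00011) and shLuci+OGD (0.77, limma adjusted p = 0.000422). Tubb3, a tubulin of neurons and a known SoxC target, averaged 7.45 FPKM in shRac1+OGD, 2.08 in shLuci+OGD, 2.44 in shRac1, 4.41 in shLuci and 10.3 in BMSC. It was lower in shLuci than in BMSC (-1.14, SE 0.10, limma adjusted p = 1.24e-05).

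Around Ccbe1, the list of VEGF-C processing was mixed, with 4 of 15 tested genes higher and 3 lower in shRac1 against shLuci, and 5 higher and 4 lower in shRac1+OGD against shRac1. Vegfd, the other lymphatic growth factor, ran opposite to Ccbe1. It averaged 0.747 FPKM in shRac1+OGD, 2.66 in shLuci+OGD, 4.08 in shRac1, 0.475 in shLuci and 0.542 in BMSC, rose in shRac1 against shLuci (2.25, SE 0.18, limma adjusted p = 1.86e-06) and fell in shRac1+OGD against shRac1 (-1.88, limma adjusted p = 1.66e-05). Fbln2, a fibulin of the matrix, averaged 144 FPKM in shRac1+OGD, 93.3 in shLuci+OGD, 57.4 in shRac1, 201 in shLuci and 125 in BMSC, with log2 differences of -1.80 in shRac1 against shLuci (limma adjusted p = 4.28e-07) and 1.32 in shRac1+OGD against shRac1 (limma adjusted p = 1.08e-05). Lyve1, a hyaluronan receptor of lymphatic vessels and some macrophages, rose in shLuci+OGD against shLuci (2.61, SE 0.16, limma adjusted p = 1.23e-07). Without OGD it was also higher in shRac1 than in shLuci (1.37, SE 0.16, limma adjusted p = 6.04e-05). The endothelial markers other than Tek were not listed. Flt4, the receptor of VEGF-C, averaged 5.57 FPKM in shRac1+OGD, 5.50 in shLuci+OGD, 2.94 in shRac1 and 2.72 in shLuci, and rose with OGD in both shRac1 (0.82, limma adjusted p = 0.000238) and shLuci (0.90, limma adjusted p = 4.6e-05).

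Around Prrg4, Mgp, which encodes the calcification inhibitor matrix Gla protein, had the widest range of all related genes. It averaged 9.63 ± 0.488 FPKM in shRac1+OGD, 0.549 ± 0.103 in shLuci+OGD, 0.409 ± 0.255 in shRac1, 172 ± 12.8 in shLuci and 7.41 ± 2.60 in BMSC. Gas6, a Gla-domain ligand of TAM receptors, averaged 64.3 FPKM in shRac1+OGD, 35.8 in shLuci+OGD, 71.0 in shRac1, 143 in shLuci and 121 in BMSC, and fell in shRac1 against shLuci (limma adjusted p = 8.18e-07) and in shLuci+OGD against shLuci (-1.98, limma adjusted p = 9.75e-10). In the whole list 1 of 11 tested genes rose and 2 fell in shRac1 against shLuci, and 2 rose and 0 fell in shRac1+OGD against shRac1.

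Around Galnt3, 0 of 13 tested genes rose and 2 fell in shRac1 against shLuci. Galnt13, another enzyme of the family, fell there (-1.34, SE 0.15, limma adjusted p = 4e-05), with low means of 0.326 FPKM in shRac1+OGD, 0.280 in shLuci+OGD, 0.717 in shRac1, 2.56 in shLuci and 0.290 in BMSC. Galnt7 fell in shRac1 against shLuci (-0.40, limma adjusted p = 0.00168) and rose in shRac1+OGD against shRac1 (0.58, limma adjusted p = 0.000167). Fam20c, the kinase that primes FGF23 for cleavage, was lower in shRac1+OGD than in shLuci+OGD (-0.45, limma adjusted p = 0.00396), as was the bone matrix gene Dmp1 (-0.92, limma adjusted p = 0.00102).

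Around Kif26b, 1 of 24 tested genes of Wnt5a-Ror signalling and planar polarity rose and 7 fell in shRac1 against shLuci, and 3 rose and 1 fell in shRac1+OGD against shRac1. Vangl2, a core planar polarity protein, averaged 1.52 FPKM in shRac1+OGD, 0.681 in shLuci+OGD, 0.601 in shRac1, 1.40 in shLuci and 1.17 in BMSC, with log2 differences of -0.79 in shRac1 against shLuci (limma adjusted p = 0.0011) and 0.87 in shRac1+OGD against shRac1 (limma adjusted p = 0.000771). Ror1, a Wnt5a receptor, went the other way, with 1.22 (limma adjusted p = 0.000686) and -0.93 (limma adjusted p = 0.00619) in the same comparisons. Wnt5a itself rose in shRac1+OGD against shRac1 (0.96, SE 0.20, limma adjusted p = 0.00696). Daam1, a formin downstream of Wnt, was higher in shRac1+OGD than in shLuci+OGD (0.66, SE 0.08, limma adjusted p = 0.000253).

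Around Rassf4, 0 of 17 tested RASSF, Hippo kinase and Ras genes passed the limma test in shRac1+OGD against shRac1 or against shLuci+OGD, with 1 and 3 of them at an unadjusted p below 0.05. Of all genes tested, 7.76% were called higher and 4.19% lower in the first comparison, and 3.85% and 3.59% in the second. In 17 genes a count of 0 is near those shares, so it does not set the list apart. Unlike Rassf4, Rassf9 rose in shRac1 against shLuci (0.66, SE 0.12, limma adjusted p = 0.00189) and in shLuci+OGD against shLuci (0.65, limma adjusted p = 0.00147). Around Wfdc1, 4 related protease inhibitors were tested, and Tfpi, the inhibitor of the tissue factor pathway, rose in shRac1 against shLuci (1.28, SE 0.18, limma adjusted p = 0.000321) and in shLuci+OGD against shLuci (1.15, limma adjusted p = 0.000518). Around Kcng1, 3 of 30 channel genes were in the table, and no Kv2 subunit was among them. Kcnd3, a subunit of the transient outward current, averaged 5.67 FPKM in shRac1+OGD, 1.97 in shLuci+OGD, 3.08 in shRac1, 6.57 in shLuci and 5.25 in BMSC, and passed the test in shRac1 against shLuci (-0.98, SE 0.10, limma adjusted p = 1.99e-05), shLuci+OGD against shLuci (-1.51, limma adjusted p = 2.53e-07) and shRac1+OGD against shRac1 (0.78, limma adjusted p = 0.000207). Aard has no list of related genes here.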

How the data were processed

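Total RNA was extracted with Trizol and sequenced on an Illumina platform, per the labels' protocols. Per the submitters' processing notes, HISAT2 and StringTie (1.2.3) were used. The deposited expression values are FPKM, per the file headers. No counts were used, so the depth of each library and the counting error are not known. The authors' deposited lists of changed genes also give log2 fold changes, p-values and q-values, with no test named in the headers.

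Groups of 3 libraries were taken from the sample titles. A gene was tested when 3 or more of the 15 libraries reached 1 FPKM, which 11515 did and 654 did not. All 9 chosen genes passed, and Galnt3, Kif26b and Kcng1 did so only through the groups where they are high. A single limma 3.58.1 fit in R 4.3.3 (lmFit, eBayes with trend, 10 residual degrees of freedom) was made on log2(FPKM + 0.5), a scale that understates differences of low genes. P-values are two-sided, adjusted by Benjamini and Hochberg over all genes tested, and called below 0.05. Shares of a group level are ratios of FPKM means.

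The 9 genes and the 8 lists of related genes were chosen with earlier results of these data known. From each list the rule names up to 4 called genes with the smallest p in each comparison (up to 2 uncalled genes where none is called). Of these the report names calls of related genes that held under every alternative, except for the interaction test, for which alternatives were not run. Counts for the lists also include calls that did not hold under every alternative. The rule also names the 10 genes with the highest r to the mean standardised profile of the 9. Promoters are from RefSeq (GRCr8). Replicate numbers were not taken as pairs, since same-numbered libraries did not deviate together. Alternatives were pseudocounts of 1 and 0.1, no filter, median-of-ratios scaling, a fit of the compared groups only, a replicate block, no trend, and each library left out. The fit was tested on simulated data, once for each of the main comparisons. The simulation gave a gene the same normal spread in all groups and changed few genes, none with a low mean. The outlying BMSC replicate 2 and the many called genes of the real data are not in it. Its counts are therefore not error rates of the real fit. Of 50 genes changed by 0.5 on the log2 scale it called 12 to 24, and of 50 changed by 2 it called 44 to 49. It also made 5 to 15 false calls. A gene that was not called may therefore still differ by a small amount.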

Additional observations from a re-analysis of the deposited data

Results flagged for a closer look

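The difference made by OGD was compared between the hairpins, as the log2 difference of shRac1+OGD against shRac1 minus that of shLuci+OGD against shLuci. For the 9 genes every shRac1+OGD library lay above every shRac1 library and every shLuci+OGD library lay below every shLuci library. This difference was not tested, since the choice of the genes used it. It was 5.10 for Galnt3, 4.90 for Aard, 4.76 for Kif26b, 4.65 for Rassf4, 4.27 for Wfdc1, 3.79 for Sox11, 3.49 for Prrg4, 3.48 for Ccbe1 and 2.67 for Kcng1.

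Among the related genes the same difference passed the limma interaction test, adjusted over 11515 genes, for 25 of the 34 genes the naming rule takes from the comparisons of OGD with no OGD, above 0 for 16 and below 0 for 9, beside 8.88% and 7.82% of all genes tested. The rule takes genes with small p-values in the comparisons that make up this difference, so the count is not independent of it. Alternatives were not run for this difference in the related genes. For the following it was positive, the sign it had in the 9 genes. Mgp had 10.88 (limma adjusted p = 5.58e-10), Fbln2 2.42, Tubb3 2.36, Kcnd3 2.30, Sox9 2.11, Tead2 2.00, Gas6 1.84, Vangl2 1.55, Galnt13 1.43 and Rassf7 1.43. Pdpn had 1.30, Fzd1 1.25, Sox13 1.02, Daam1 0.88, Rassf1 0.65 and Galnt7 0.43. Of these, Galnt13 and Gas6 had lower means in shRac1+OGD (0.326 and 64.3 FPKM) than in shRac1 (0.717 and 71.0 FPKM). So did Rassf7 (1.15 against 1.16 FPKM) and Rassf1 (23.7 against 24.2 FPKM), unlike the 9 genes. The others listed had higher means in shRac1+OGD than in shRac1.

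The same difference was negative for Vegfd at -3.60 (limma adjusted p = 5.19e-07), Lyve1 at -1.85, Ror1 at -1.59, Tfpi at -1.23, Sox6 at -1.17, Dmp1 at -1.10, Rassf9 at -0.96, Kcnd1 at -0.49 and Nedd4l at -0.44.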

How the results depend on the processing

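A fit of the compared groups only called 181 genes in shLuci against BMSC (main value 1644), 3731 in shRac1 against shLuci (1928), 4050 in shLuci+OGD against shLuci (2564), 4367 in shRac1+OGD against shRac1 (1376) and 2100 in shRac1+OGD against shLuci+OGD (856). Of the related genes it called 4, 46, 49, 51 and 29 in that order, against 30, 30, 35, 24 and 16, and of the 9 genes 2 in shLuci against BMSC, against 5. With 1 library left out at a time, the counts of genes ranged over 980 to 3681, 1327 to 4292, 1886 to 5255, 911 to 3459 and 553 to 2473, and those of related genes over 17 to 50, 23 to 52, 30 to 60, 19 to 39 and 12 to 33. The highest counts of genes came without BMSC replicate 2. The 9 genes gave 3 to 6 calls. In shLuci against BMSC the log2 difference of Ccbe1 ranged over -0.27 to 0.57 and that of Sox11 over -0.094 to 0.75, both negative only without BMSC replicate 2. The median of all genes in shLuci against BMSC was 0.11 on the log2 scale and 0.0057 with median-of-ratios scaling, which gave 756 higher and 712 lower calls in place of 1150 and 494. In shLuci+OGD against shLuci it gave 1122 higher and 1345 lower in place of 1507 and 1057, in shRac1+OGD against shRac1 711 and 618 in place of 894 and 482, and in shRac1+OGD against shLuci+OGD 508 and 323 in place of 443 and 413. With the replicate block 1479, 1790, 2403, 1256 and 756 genes were called, and 4 of the 9 genes, without Kcng1. Same-numbered libraries had correlations of their deviations of -0.638 to 0.560 (median -0.0221, 11 of 30 pairs above 0.1), and 3 of 15 libraries correlated best with their own number. The causes were not tested, and with FPKM alone the depth behind low genes such as Galnt3 is unknown.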
